A study of Mus musculus with 12 samples.

Results

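The genes of sterol and fatty acid synthesis were followed in the mouse neural tube, the epithelium from which brain and spinal cord form, over 1 day of gestation. The members were 32 genes listed by name for their place in these pathways, and 31 of them were measured among 18193 genes. The list was chosen with earlier results of these data known, so its shares beside those of all genes are descriptions. Acat2 was not analysed here. Each gene was read from its brightest probe set that names 1 gene, so every level below is the log2 signal of 1 probe set, and levels of different genes are not compared. The probe set annotated as Sc4mol is given by its current symbol, Msmo1.

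Neural tubes were micro-dissected from embryos of ICR (CD-1) mice, an outbred stock, at gestation days 8.5, 9.0 and 9.5 (GD8.5, GD9.0 and GD9.5), all groups share this strain and tissue, and no treatment is named. The labels give 4 biological replicates per stage on Affymetrix mouse genome arrays and do not say whether a replicate is a litter, an embryo or a pool. The p-values below therefore measure only the spread between these samples. GD8.5 replicates 1 and 2 were deposited as linear intensities and the other arrays as log2 values, so the main comparison used 10 arrays: 2 of GD8.5 and 4 each of the later stages.

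Cholesterol is built from acetyl-CoA through the mevalonate pathway, which ends in farnesyl diphosphate. Squalene synthesis then commits the carbon to sterols, and a chain of membrane enzymes of the endoplasmic reticulum turns lanosterol into cholesterol. The transcription factor SREBP-2 (Srebf2) drives most of these genes when sterols are low. It is held in the endoplasmic reticulum by INSIG proteins and escorted to the Golgi by SCAP for cleavage. SREBP-1 (Srebf1) acts mainly on fatty acid synthesis, desaturation and elongation. In the embryo, cholesterol is also attached covalently to Sonic hedgehog, a patterning signal of the neural tube, and inherited loss of Dhcr7 causes Smith-Lemli-Opitz syndrome, a malformation syndrome.

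Promoter sequence was read for the members from a RefSeq table of the GRCm38.p6 build, which matched 25 of the 31 measured genes. Scd1, Scd2, Fads1, Fdps, Fdft1 and Sqle had no entry. The window was the 250 bases before each annotated start. Dhcr7, Srebf1, Pmvk and Scap had several starts, so the 25 genes had 31 windows, and a gene was counted where any of its windows held the motif. Both strands were searched for CCAAT, the box bound by NF-Y, for GGGCGG, a GC box of the kind bound by SP1, and for TCACNCCAC, a form of the sterol regulatory element bound by SREBPs. Matches of different motifs can share bases and were counted separately. A match is a description and not a binding site, and the array data do not test it. CCAAT occurred in 20 of 25 genes (80%; 21 of the 31 windows), and in 39.4% of the 14452 genes on the array with an entry, counted the same way. At least 2 copies in 1 window occurred in 11 of 25 genes (44%), and in 13.4% of the array's genes. GGGCGG occurred in 20 of 25 genes (80%) and in 53.4% of the array's genes. TCACNCCAC occurred in 1 of 25 genes (4%), Hmgcs1, where it lay 137 bases before the start, and in 1.27% of the array's genes. The genes without CCAAT in any window were Acaca, Acly, Elovl6, Fads2 and Scap.

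The promoters of 6 chosen genes, whose levels on each array are given below, are shown as examples. They are of genes whose rise was called in both intervals, in the first alone or in the second alone. They lie at chr13:119690101-119690350 (plus strand) for Hmgcs1, chr13:8885356-8885605 (plus strand) for Idi1, chr5:28071162-28071411 (plus strand) for Insig1, chr8:64733579-64733828 (minus strand) for Msmo1, chrX:72918271-72918520 (plus strand) for Nsdhl and chr19:10101504-10101753 (minus strand) for Fads2. Each is written 5′ to 3′ on the strand of its gene and ends at the base before the start. Capitals mark CCAAT, its reverse complement ATTGG, and TCACNCCAC, and the Fads2 promoter holds none. CCAAT was also absent from Elovl6, whose brightest probe set was called in the first interval, and present in Srebf2, whose brightest was called in the second. A link between motif and timing was not tested.
Hmgcs1: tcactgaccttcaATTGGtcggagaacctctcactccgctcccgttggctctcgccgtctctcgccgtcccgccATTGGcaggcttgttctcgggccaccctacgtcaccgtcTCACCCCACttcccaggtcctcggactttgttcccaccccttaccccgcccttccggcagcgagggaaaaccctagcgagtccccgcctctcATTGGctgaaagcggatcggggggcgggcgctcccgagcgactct
Idi1: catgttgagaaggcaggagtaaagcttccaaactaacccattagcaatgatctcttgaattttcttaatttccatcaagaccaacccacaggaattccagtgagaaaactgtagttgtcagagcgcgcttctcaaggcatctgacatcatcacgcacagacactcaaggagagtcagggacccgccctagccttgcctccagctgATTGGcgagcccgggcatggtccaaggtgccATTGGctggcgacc
Insig1: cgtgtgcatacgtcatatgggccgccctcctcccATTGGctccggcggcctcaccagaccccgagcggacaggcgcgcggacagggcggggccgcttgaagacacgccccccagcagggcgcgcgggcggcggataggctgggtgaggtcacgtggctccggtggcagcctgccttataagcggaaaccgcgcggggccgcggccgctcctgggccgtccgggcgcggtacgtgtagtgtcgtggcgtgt
Msmo1: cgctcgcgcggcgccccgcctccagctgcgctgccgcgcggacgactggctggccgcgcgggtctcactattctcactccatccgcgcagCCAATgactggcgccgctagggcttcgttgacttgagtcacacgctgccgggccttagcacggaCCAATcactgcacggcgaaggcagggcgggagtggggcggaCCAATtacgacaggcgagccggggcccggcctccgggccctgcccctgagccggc
Nsdhl: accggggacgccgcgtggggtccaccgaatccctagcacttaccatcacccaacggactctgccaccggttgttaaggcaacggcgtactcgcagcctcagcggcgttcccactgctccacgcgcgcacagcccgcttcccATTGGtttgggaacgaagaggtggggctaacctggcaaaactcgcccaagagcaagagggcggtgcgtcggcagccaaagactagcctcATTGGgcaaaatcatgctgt
Fads2: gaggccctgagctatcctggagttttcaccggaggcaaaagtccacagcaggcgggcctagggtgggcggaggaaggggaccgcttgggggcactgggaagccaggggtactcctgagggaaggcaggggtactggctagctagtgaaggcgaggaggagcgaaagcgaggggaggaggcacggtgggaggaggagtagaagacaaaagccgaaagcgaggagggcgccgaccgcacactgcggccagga

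A stage difference was called at an adjusted p under 0.05 by limma, a moderated linear model fitted across all 18193 genes with Benjamini-Hochberg adjustment. Changes below are log2 differences with the standard error of that fit. From GD8.5 to GD9.5, 24 of the 31 members rose (77.4%), none fell and 7 did not pass the test. Of all genes, 28.6% were called in this comparison, 15.5% higher and 13.1% lower. Every GD9.5 array lay above both GD8.5 arrays in 25 members and below both in 2, as in 23.2% and 22.7% of all genes. The median log2 change of the members was 0.54, with a range of -0.17 to 1.58, against -0.0164 over all genes. All 31 members lay above 1.42 at every stage, the 95th percentile of 39 olfactory receptor genes, which served as the background level.

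From GD8.5 to GD9.0, 18 members rose (58.1%) and none fell, beside 6.78% of all genes called higher and 6.74% called lower. From GD9.0 to GD9.5, 15 rose (48.4%) and 2 fell, beside 14.1% and 10.3% of all genes. The median log2 change of the members was 0.31 in the first interval and 0.19 in the second, against -0.00191 and -0.00765 over all genes. The intervals share the GD9.0 arrays and the comparison over the day shares the GD8.5 arrays with the first interval, so the counts are not independent. The rise was called in both intervals for 10 members (32.3%) and for 3.12% of all genes: Hmgcs1, Fdft1, Sqle, Tm7sf2, Msmo1, Hsd17b7, Dhcr7, Insig1, Acss2 and Fads1. The arrays of neighbouring stages did not overlap in 22 members that went up and 3 that went down in the first interval (17.6% and 16.9% of all genes). In the second they did not overlap in 19 and 2 (15.1% and 11.9% of all genes). In 13 members (41.9%), and in 5.2% of all genes, every array of a later stage lay above every array of the stage before.

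**Figure D1:**
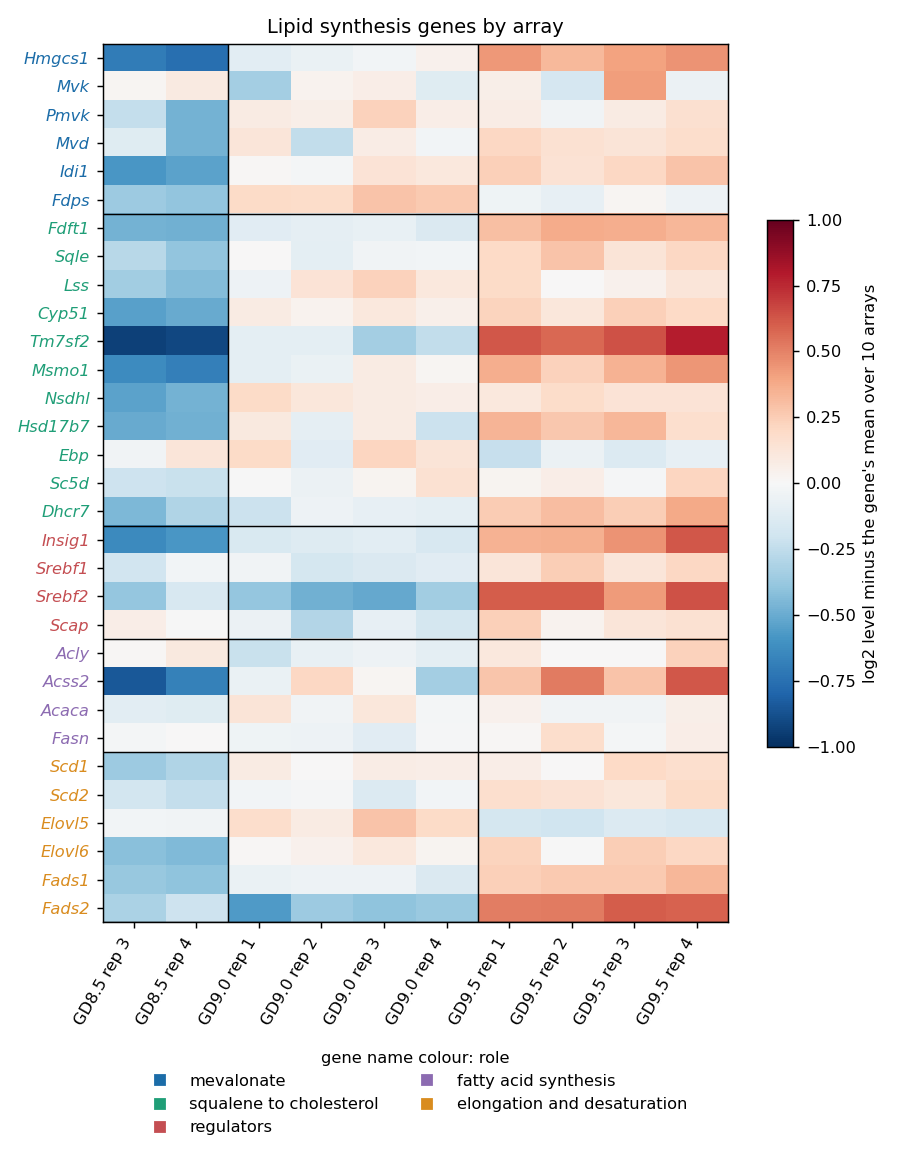
Heat map of the 31 measured members (rows, ordered by pathway step) in the 10 log2 arrays (columns, ordered by stage), with the colour giving each value minus the mean of its gene, in log2 units and limited to ±1. The mean of the centred members ran from -0.346 to -0.336 on the GD8.5 arrays, then from -0.056 to 0.0023, and reached 0.17 to 0.25 on the GD9.5 arrays.

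Averaged over the centred members, the arrays of the 3 stages did not overlap. In the order of the stages, the means were -0.34 ± 0.0067 (SD, n = 2), -0.035 ± 0.025 (SD, n = 4) and 0.21 ± 0.033 (SD, n = 4). Within a stage the members were tight, with a median SD across replicates of 0.041, 0.076 and 0.075 log2 units at the 3 stages. The widest SDs were 0.25, 0.23 and 0.25.

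Of the 6 mevalonate pathway genes, 4 rose in the first interval, with a list median of 0.54, and 1 rose and 1 fell in the second, with a median of 0.16. Of all genes, 6.78% were called higher and 6.74% lower in the first interval, and 14.1% and 10.3% in the second. Over the day the shares were 15.5% and 13.1%, and the counts of the later pathway groups stand beside the same shares. Hmgcs1, the synthase that makes HMG-CoA, read 8.66 and 8.60 at GD8.5, then 9.26, 9.29, 9.33 and 9.40 at GD9.0, and 9.79, 9.68, 9.76 and 9.81 at GD9.5. Each stage stood clear of the one before. Hmgcs1 rose by 0.69 ± 0.06 in the first interval (limma adjusted p = 2.86e-05) and by 0.44 ± 0.05 in the second (limma adjusted p = 0.000117), or 2.18-fold over the day. Of the 4 other probe sets of Hmgcs1, 3 also rose in both intervals, by 0.65 to 0.87 and then by 0.41 to 0.43. The remaining set, near background, gave 0.37 in the first interval, which was not called, and rose by 0.37 in the second.

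Idi1, which isomerises isopentenyl diphosphate, read 7.65 and 7.70 at GD8.5, 8.24, 8.21, 8.37 and 8.34 at GD9.0, and 8.47, 8.38, 8.44 and 8.52 at GD9.5. It rose by 0.62 ± 0.07 in the first interval (limma adjusted p = 9.83e-05), while the further 0.16 ± 0.06 did not pass the test (limma adjusted p = 0.056). The first interval held 79% of its change over the day, against 61% for Hmgcs1. A second probe set of Idi1 gave 0.20 and 0.25 in the intervals, neither called. Pmvk, phosphomevalonate kinase, rose by 0.46 ± 0.09 in the first interval (limma adjusted p = 0.00353), a call lost, as was that over the day, when GD8.5 replicate 4 was left out, and changed by -0.04 ± 0.07 in the second (limma adjusted p = 0.756).

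Fdps, the synthase of farnesyl diphosphate at the branch point of the pathway, rose and then fell. Its levels were 7.11 and 7.08 at GD8.5, 7.67, 7.66, 7.77 and 7.74 at GD9.0, and 7.43, 7.39, 7.50 and 7.43 at GD9.5. The GD9.5 arrays lay between those of the other stages without overlap. The rise was 0.61 ± 0.06 (limma adjusted p = 4.41e-05) and the later change -0.27 ± 0.05 (limma adjusted p = 0.00191), which left it 1.27-fold higher than at GD8.5. It was the only member called higher in the first interval and lower in the second.

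Mvk and Mvd, the mevalonate kinase and the diphosphomevalonate decarboxylase, changed less clearly. Mvk ran from 2.94 to 3.70 over all 10 arrays and its stages overlapped, with a change over the day of 0.01 ± 0.15 (limma adjusted p = 0.977). Mvd rose over the day by 0.46 ± 0.11 (limma adjusted p = 0.00943), from 3.43 and 3.08 to between 3.68 and 3.75, with neither interval called. The Mvd call was lost without GD8.5 replicate 4. Another probe set of Mvd gave 0.17 over the day and was not called, so the rise rests on 1 of 2 probe sets.

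**Figure D2:**
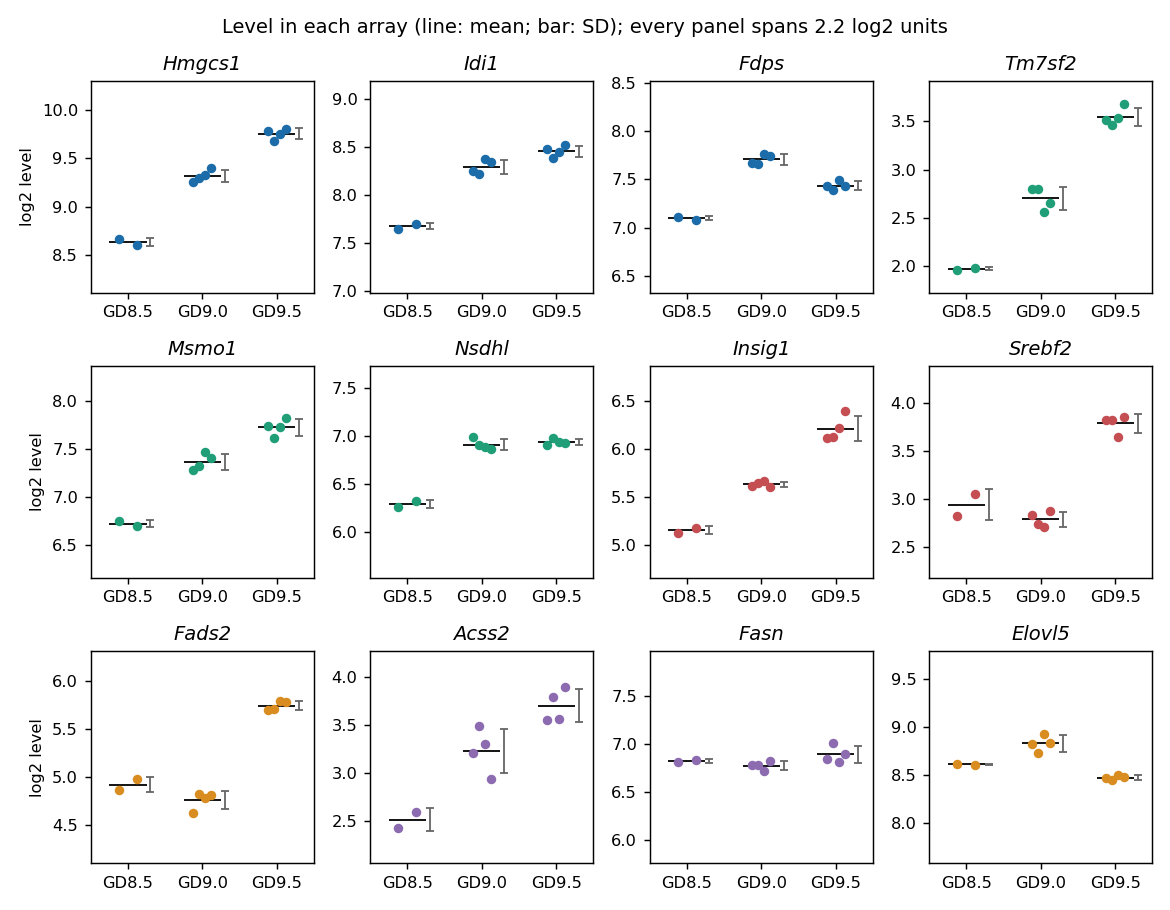
Levels of 12 members on each array (points; log2 signal, every panel spanning 2.2 log2 units), 2 arrays for GD8.5 and 4 for each later stage, with a horizontal line at each stage mean and a bar of ±1 SD beside it. Hmgcs1, Msmo1, Insig1 and Acss2 climb at each step, Idi1 and Nsdhl climb mainly at the first, Srebf2 and Fads2 only at the second, Fdps and Elovl5 are highest at GD9.0, and Fasn stays between 6.72 and 7.01.

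Most genes of the route from squalene to cholesterol rose. Of these 11 members, 9 rose in the first interval and 6 in the second, none fell, and 10 were higher over the day, with medians of 0.46, 0.24 and 0.67. The shares of all genes called higher were 6.78%, 14.1% and 15.5%. Tm7sf2, a sterol reductase that acts after lanosterol demethylation, had the largest rise of any member over the day. It read 1.96 and 1.98 at GD8.5, 2.80, 2.80, 2.56 and 2.65 at GD9.0, and 3.51, 3.46, 3.53 and 3.68 at GD9.5. The steps were 0.73 ± 0.09 (limma adjusted p = 0.00017) and 0.85 ± 0.07 (limma adjusted p = 7.95e-06), for a 2.98-fold rise. Its GD8.5 level lies near the background of 1.42.

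Msmo1, the sterol methyl oxidase, read 6.75 and 6.70 at GD8.5, 7.28, 7.32, 7.46 and 7.40 at GD9.0, and 7.74, 7.61, 7.72 and 7.82 at GD9.5. The rises were 0.64 ± 0.08 (limma adjusted p = 0.000166) and 0.36 ± 0.06 (limma adjusted p = 0.00136), or 2-fold over the day. A second probe set of Msmo1, near background, gave 0.31, -0.06 and 0.25 for the first interval, the second and the day, none called. Nsdhl, the dehydrogenase that works with it in removing methyl groups, read 6.26 and 6.32 at GD8.5, 6.99, 6.91, 6.88 and 6.86 at GD9.0, and 6.90, 6.98, 6.93 and 6.93 at GD9.5. Its GD9.0 and GD9.5 arrays overlapped. Nsdhl rose by 0.62 ± 0.06 in the first interval (limma adjusted p = 3.9e-05) and by 0.03 ± 0.05 in the second, which did not pass (limma adjusted p = 0.765). Thus 96% of its change over the day lay in the first interval.

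Cyp51, the lanosterol demethylase, was likewise called in the first interval and not in the second, with 5.94 and 5.99 at GD8.5, 6.57, 6.52, 6.60 and 6.54 at GD9.0, and 6.71, 6.60, 6.72 and 6.69 at GD9.5. Its first step was 0.59 ± 0.06 (limma adjusted p = 5.01e-05) and its second 0.12 ± 0.05 (limma adjusted p = 0.0926), and another probe set was also called in the first interval only, with 0.45 and then -0.14. The remaining probe set gave the opposite timing, 0.26 (not called) and then 0.54 (called). Lss, which cyclises oxidosqualene to lanosterol, rose by 0.49 ± 0.08 in the first interval (limma adjusted p = 0.00225) and changed by -0.02 ± 0.07 in the second (limma adjusted p = 0.894). Of its other probe sets, 1 rose in both, by 0.40 and 0.71, and 1 near background gave 0.27 and -0.22, neither called, so the timing of Lss depends on the probe set.

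Fdft1, the squalene synthase, moved in close replicates: 6.91 and 6.90 at GD8.5, 7.27, 7.29, 7.30 and 7.24 at GD9.0, and 7.68, 7.75, 7.74 and 7.71 at GD9.5. It rose by 0.37 ± 0.05 (limma adjusted p = 0.000861) and 0.45 ± 0.04 (limma adjusted p = 3.03e-05). Sqle, the squalene epoxidase, rose by 0.30 ± 0.07 (limma adjusted p = 0.0112) and 0.24 ± 0.05 (limma adjusted p = 0.00645), the first call being lost without GD8.5 replicate 4. Hsd17b7, a keto-reductase of sterol demethylation, rose 1.38-fold and then 1.23-fold, with its first call lost without GD8.5 replicate 3. Another of its probe sets was called in the first interval only, with log2 changes of 0.33 and then 0.18. The remaining ones gave 0.26 and 0.23 in the first interval and 0.30 and -0.15 in the second, none called. The second call of Hsd17b7 thus rests on 1 probe set.

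Dhcr7, the last reductase before cholesterol, read 4.74 and 4.89 at GD8.5, 4.98, 5.14, 5.11 and 5.09 at GD9.0, and 5.44, 5.50, 5.44 and 5.57 at GD9.5. The second step of 0.41 ± 0.06 (limma adjusted p = 0.000478) was the clearer. The first, 0.27 ± 0.07 (limma adjusted p = 0.0315), was called in 12 of 20 alternative settings and was lost without either GD8.5 array or without GD9.0 replicate 2, 3 or 4. The rise over the day, 0.67 ± 0.07, was called in every one of the 20. Sc5d, a sterol desaturase, rose by 0.29 ± 0.08 over the day (limma adjusted p = 0.0171), a call lost without either GD8.5 array, while another of its probe sets rose by 1.2. Ebp, the sterol isomerase, was not called in any comparison, with -0.17 ± 0.10 over the day (limma adjusted p = 0.231).

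All 4 regulators rose in the second interval, with a group median of 0.44, and 1 of them, Insig1, rose in the first, with a group median of -0.08. Of all genes, 14.1% were called higher in the second interval and 6.78% in the first. The second-interval calls of Srebf1 and Scap were lost when all 12 arrays were used. Over the 3 stages in order, the centred regulators averaged -0.24, -0.21 and 0.33. The corresponding means of the squalene to cholesterol genes were -0.44, -0.0057 and 0.23.

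Insig1, which retains SCAP in the endoplasmic reticulum and is itself a sterol-regulated gene, was the regulator called in the first interval as well. Its levels were 5.13 and 5.18 at GD8.5, 5.61, 5.64, 5.66 and 5.60 at GD9.0, and 6.12, 6.12, 6.21 and 6.39 at GD9.5, with no overlap between stages. It rose by 0.48 ± 0.08 (limma adjusted p = 0.0019) and 0.58 ± 0.06 (limma adjusted p = 7.15e-05), or 2.08-fold over the day.

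Srebf2 read 2.83 and 3.05 at GD8.5, 2.83, 2.74, 2.70 and 2.87 at GD9.0, and 3.82, 3.82, 3.64 and 3.85 at GD9.5. The GD8.5 and GD9.0 arrays overlapped and every GD9.5 array stood above them. The first change was -0.15 ± 0.09 (limma adjusted p = 0.312) and the second 1.00 ± 0.07 (limma adjusted p = 2.56e-06). A second probe set of Srebf2, at 2.72, 2.72 and 2.83 over the stages, gave 0.10 in the second interval and was not called (limma adjusted p = 0.44 over probe sets), so the rise rests on 1 of 2 probe sets. Srebf1 changed by -0.01 ± 0.07 (limma adjusted p = 0.965) and then rose by 0.29 ± 0.06 (limma adjusted p = 0.00351), and its call over the day was lost without GD8.5 replicate 3. Scap gave -0.18 ± 0.08 (limma adjusted p = 0.197) and then 0.28 ± 0.07 (limma adjusted p = 0.00876), which left it at 0.10 ± 0.08 over the day (limma adjusted p = 0.404).

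**Figure D3:**
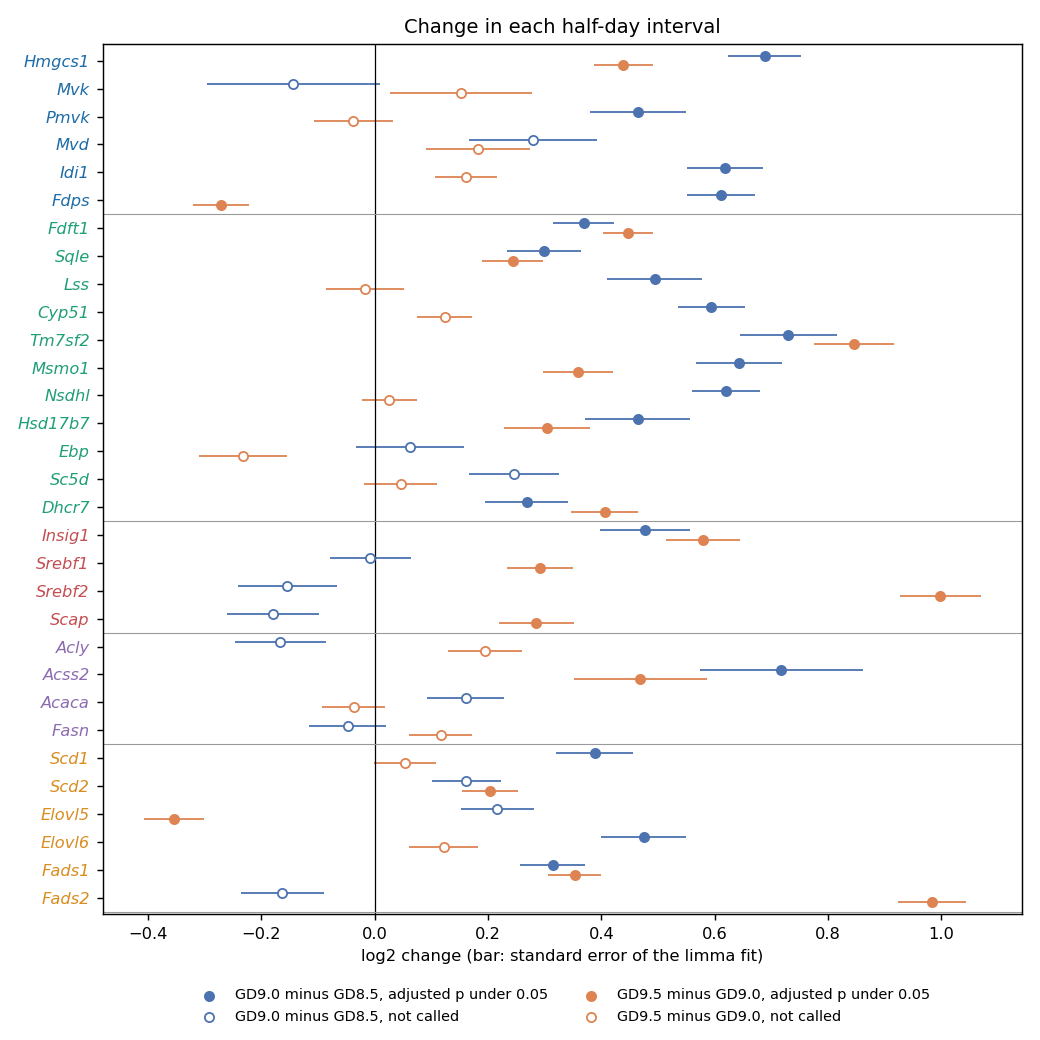
Log2 change of each member from GD8.5 to GD9.0 and from GD9.0 to GD9.5 (points, with bars of ±1 standard error from limma; filled points passed the adjusted p of 0.05), grouped by pathway step. The sterol enzymes lie mostly to the right of 0 in the first interval, where 13 of 17 passed, and the 4 regulators all passed in the second. Of all genes, 6.78% were called higher in the first interval and 14.1% in the second.

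Of the 4 genes of fatty acid synthesis itself, only Acss2 was called in any of these stage comparisons. Acss2, the cytosolic acetyl-CoA synthetase, read 2.43 and 2.60 at GD8.5, 3.21, 3.49, 3.30 and 2.94 at GD9.0, and 3.55, 3.80, 3.56 and 3.90 at GD9.5. It rose by 0.72 ± 0.14 (limma adjusted p = 0.00624) and 0.47 ± 0.12 (limma adjusted p = 0.0129), or 2.28-fold over the day, and the first call was lost without GD8.5 replicate 3. Fasn, the fatty acid synthase, read 6.81 and 6.84 at GD8.5, 6.79, 6.78, 6.72 and 6.82 at GD9.0, and 6.85, 7.01, 6.82 and 6.90 at GD9.5. Its stages overlapped and its change over the day was 0.07 ± 0.07 (limma adjusted p = 0.525). Acaca, the acetyl-CoA carboxylase that makes malonyl-CoA, gave 0.12 ± 0.07 (limma adjusted p = 0.223). Acly, which makes acetyl-CoA from citrate, gave 0.03 ± 0.08 (limma adjusted p = 0.845). A p above the threshold does not show that these 3 genes were constant.

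Of the 6 genes of elongation and desaturation, 5 were higher at GD9.5 than at GD8.5, beside 15.5% of all genes, with a median of 0.52. Fads2, the first desaturase of polyunsaturated fatty acid synthesis, read 4.86 and 4.97 at GD8.5, 4.62, 4.82, 4.78 and 4.81 at GD9.0, and 5.69, 5.70, 5.79 and 5.77 at GD9.5. The GD9.0 arrays lay just under those of GD8.5, a change of -0.16 ± 0.07 that did not pass (limma adjusted p = 0.192), and the GD9.5 arrays stood well above both. The second step was 0.98 ± 0.06 (limma adjusted p = 7.6e-07), and the other 2 probe sets of Fads2 rose by 0.55 and 0.68 in that interval. Fads1, the next desaturase of that route, rose in both intervals instead, from 6.11 and 6.08 through 6.43, 6.44, 6.44 and 6.35 to 6.73, 6.75, 6.75 and 6.82. Its steps were 0.31 ± 0.06 (limma adjusted p = 0.00358) and 0.35 ± 0.05 (limma adjusted p = 0.00026).

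Elovl5, the elongase of polyunsaturated chains, read 8.62 and 8.61 at GD8.5, 8.82, 8.72, 8.93 and 8.84 at GD9.0, and 8.47, 8.44, 8.51 and 8.48 at GD9.5. It was highest at GD9.0 and lowest at GD9.5 with no overlap. The fall of the second interval was -0.35 ± 0.05 (limma adjusted p = 0.000566), and the other probe set gave -0.34. The rise before it, 0.22 ± 0.06, missed the threshold (limma adjusted p = 0.0501). Elovl6, the elongase of saturated chains, rose by 0.48 ± 0.07 in the first interval (limma adjusted p = 0.00134), with 0.12 ± 0.06 in the second (limma adjusted p = 0.189). Another of its probe sets was called in both intervals, with 0.40 and then 0.25. The remaining one, near background, gave -0.02 and 0.16, neither called, so the timing of Elovl6 depends on the probe set.

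Scd1 and Scd2 introduce the double bond of monounsaturated fatty acids. Scd1 rose in the first interval by 0.39 ± 0.07 (limma adjusted p = 0.00263) and gave 0.05 ± 0.06 in the second (limma adjusted p = 0.555). Scd2 read 9.72 and 9.66 at GD8.5, 9.88, 9.89, 9.77 and 9.87 at GD9.0, and 10.07, 10.04, 10.01 and 10.09 at GD9.5. Its brightest probe set rose by 0.20 ± 0.05 in the second interval (limma adjusted p = 0.011). The other probe sets rose in the first interval, by 1.47 and 0.56, and gave -0.16 and -0.09 in the second, so the size and timing of the Scd2 rise depend on the probe set.

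Whether the intervals differed was tested directly, as the second change minus the first, within the same fit. Over all genes, 6.97% were called with a larger second change and 4.67% with a smaller one. Among the members, 3 were called larger and 7 smaller. The larger were Srebf2 (1.15 ± 0.13, limma adjusted p = 0.000286), Fads2 (1.15 ± 0.11, limma adjusted p = 8.45e-05) and Scap (0.47 ± 0.12, limma adjusted p = 0.0341). The smaller were Fdps (-0.88 ± 0.09, limma adjusted p = 0.000137), Nsdhl (-0.59 ± 0.09, limma adjusted p = 0.00198), Elovl5 (-0.57 ± 0.10, limma adjusted p = 0.00392), Lss, Pmvk, Cyp51 and Idi1, the last 4 between -0.51 and -0.46. Of the 17 sterol enzymes 6 were smaller and none larger. The calls for Scap and Lss were lost without either GD8.5 array, without GD9.0 replicate 2 or 4, for Lss also without GD9.0 replicate 3, and for Scap without GD9.5 replicate 1, 3 or 4. That for Pmvk was lost without GD8.5 replicate 4 or GD9.0 replicate 1, 3 or 4, and that for Idi1 without GD8.5 replicate 3. With each gene read as the average over its probe sets, the calls for Idi1 (-0.21), Cyp51 (-0.26), Lss (-0.23) and Scap (0.28) were lost. In that setting Scd1 (-0.42) and Scd2 (-0.74) were called smaller.

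**Figure D4:**
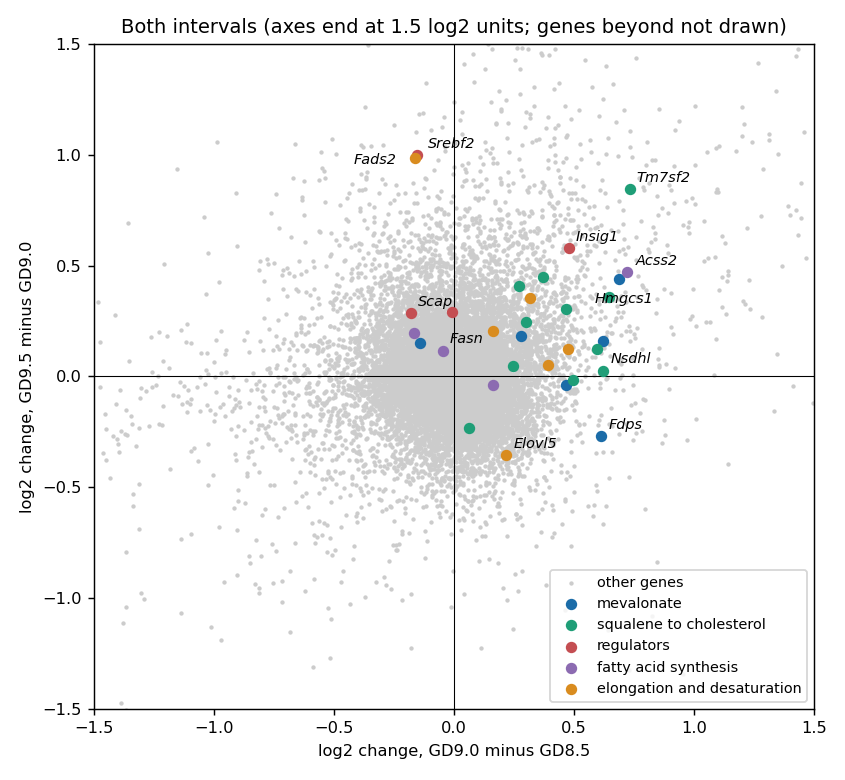
Log2 change from GD9.0 to GD9.5 (vertical) against that from GD8.5 to GD9.0 (horizontal), for all genes (small points) and the 31 members (large points, coloured by pathway step). Both axes use the GD9.0 arrays, the axes end at ±1.5 log2 units and 174 genes beyond them are not drawn, and Srebf2 and Fads2 sit high at a first change below 0 while Fdps and Elovl5 lie below 0 on the vertical axis.

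Other probe sets gave a view of the members that the choice of the brightest did not use. Of the 71 probe sets that name only a member, 40 were not the brightest of their gene and 33 of these, from 21 genes, lay above background. Of the 33, 12 were called higher in the first interval, 13 in the second and 19 over the day, with 0, 1 and 0 called lower. Of all 10668 such probe sets of the array's genes, 7.41%, 13.4% and 16% were called higher and 4.3%, 13.4% and 12% lower. The median changes of the 33 probe sets of the members were 0.26, 0.18 and 0.47. The probe sets used for Hmgcs1, Fdft1, Hsd17b7, Acly and Elovl5 (suffix _x_at) and for Lss and Mvd (suffix _s_at) are of kinds that may hybridise to transcripts of other genes.

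The 2 GD8.5 arrays left out were read on a common scale after log2 and quantile normalization of all 12. On that scale all 4 GD8.5 arrays lay below every GD9.5 array in 24 of the 31 members, and below every GD9.0 array in 19, as in 15.3% and 10.2% of all genes. The exceptions against GD9.5 were Acly, Ebp, Elovl5, Fasn, Mvd, Mvk and Scap. The linear arrays did not always lie with their group. Insig1 was at 6.18 to 6.41 on them and at 5.85 to 5.92 on the other GD8.5 arrays, and Dhcr7 was at 3.51 to 5.30 against 5.47 to 5.65. Tm7sf2 was at 2.80 to 3.49 against 2.76 to 2.77. With 12 arrays the first-interval calls of Insig1 (limma adjusted p = 0.1685) and Dhcr7 (limma adjusted p = 0.1593) and the second-interval call of Dhcr7 (limma adjusted p = 0.6906) were lost. So were the second-interval calls of Acss2 (limma adjusted p = 0.2524), Hsd17b7 (0.317), Scap (0.3362), Srebf1 (0.1412) and Scd2 (0.06467), and that of Mvd over the day (0.2001). The calls of Pmvk and Scap for the difference of the intervals were lost too. Calls gained were first-interval rises of Acaca, Elovl5 and Sc5d, a first-interval fall of Fads2 and a fall of Ebp over the day.

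Of the 11 other genes of the sterol pathway measured, which act in side branches or as partners of these enzymes, 3 rose (27.3%) and 3 fell (27.3%) over the day, beside 15.5% and 13.1% of all genes, with a median of 0.076. Acat1, the mitochondrial acetoacetyl-CoA thiolase, rose by 0.76 ± 0.07 (limma adjusted p = 9.49e-06), and Lbr, a nuclear envelope protein with the same sterol reductase activity as Tm7sf2, by 0.22 ± 0.06 (limma adjusted p = 0.0172). Nus1, of dolichol synthesis, fell by 0.36 on the log2 scale (limma adjusted p = 0.0011). Among 18 further genes of SREBP control and sterol supply, 4 rose (22.2%) and 2 fell (11.1%) over the day, shares near those of all genes, so the count is no result about the list. Stard4, a cytosolic sterol carrier, rose by 0.45 ± 0.08 (limma adjusted p = 0.00112), while Insig2, the paralog of Insig1, changed by -0.27 ± 0.08 (limma adjusted p = 0.035). Lpin1, a phosphatidate phosphatase, gave 0.13 ± 0.18 (limma adjusted p = 0.661).

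Of 22 genes of sterol uptake, storage and efflux, 3 were called higher (13.6%) and 8 lower (36.4%) over the day, with a median of -0.21. The shares over all genes were 15.5% higher and 13.1% lower. Apob, the structural protein of lipoproteins made by yolk sac endoderm, had stage means of 5.80, 2.18 and 1.27 and was at least 20.7-fold lower at GD9.5. Apoe, a lipoprotein ligand, fell from 6.87 to 4.46 (-2.40 ± 0.07, limma adjusted p = 7.9e-10). Mttp, which loads lipid onto apolipoprotein B, changed by -1.28 ± 0.14 (limma adjusted p = 3.26e-05). Lrp8, a lipoprotein receptor of neural cells, rose by 1.24 ± 0.17 (limma adjusted p = 0.00017). The endoderm list below also holds Apob and Mttp.

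Of 30 further genes of fatty acid synthesis, elongation and activation, 7 rose (23.3%) and 5 fell (16.7%) over the day, with a median of 0.081. These shares are near the 15.5% and 13.1% of all genes, so the count is no result about the list. Acsl6, an acyl-CoA synthetase enriched in brain, rose by 1.49 ± 0.13 (limma adjusted p = 6.91e-06), and Elovl2, an elongase of long polyunsaturated chains, by 0.58 ± 0.07 (limma adjusted p = 5.8e-05). Elovl1, an elongase of saturated very long chains, changed by -0.54 ± 0.09 (limma adjusted p = 0.000973). Slc25a1, the mitochondrial citrate carrier that feeds Acly, changed by -0.33 ± 0.07 (limma adjusted p = 0.00354).

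The RNA levels of marker genes of several tissues changed over the same stages. In bulk tissue, fewer cells of a type and less RNA per cell cannot be told apart. The counts below stand beside 15.5% of all genes called higher and 13.1% called lower over the day. Of 24 measured neural tube markers, 19 rose and 2 fell over the day, and the mean level of the list ran from 5.19 to 5.23 on the GD8.5 arrays, 5.70 to 5.74 at GD9.0 and 6.28 to 6.34 at GD9.5. Among them, Nkx2-2 stayed at or under background at all stages and Olig2 at GD8.5. Of 22 endoderm and yolk sac markers, 20 fell and none rose, with mean levels of 5.11 to 5.15, 2.82 to 2.88 and 1.71 to 1.78, and with Alb at or under background throughout. Of 22 cardiac markers, 19 fell and none rose, with 4.54 to 4.60, 2.60 to 2.64 and 1.5 to 1.64, and 11 of them, Tnnt2 and Myh6 included, were at background by GD9.5. Of 16 erythroid markers, 11 rose and 1 fell, with 3.55 to 3.64, 4.20 to 4.26 and 4.71 to 4.82. The marker that fell, Hba-a1, lay at or under background at all stages, and Nfe2, Rhag and Tspo2 did so at some.

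Markers of surface ectoderm had stage means of 4.18, 3.80 and 3.35, and those of mesoderm 3.47, 3.38 and 3.44. Of the 21 mesoderm markers, 5 rose (23.8%) and 7 fell (33.3%) over the day, beside 15.5% and 13.1% of all genes. Their log2 changes over the day ran from -1.87 to 2.64. Endothelial markers gave 3.34, 3.23 and 3.15, and macrophage and decidua markers 2.12, 1.58 and 1.71. Of the 15 macrophage and decidua markers, 6, 8 and 9 lay at or under background at the 3 stages in order. Their first-interval log2 changes ran from -4.95 to 0.27. RNA measures also differed between stages. The 18S probe sets had means of 9.82 ± 0.01, 8.81 ± 0.18 and 10.3 ± 0.09 (SD, n = 2, 4 and 4), and the actin control's 3′ probe set exceeded its 5′ one by 0.71 ± 0.02, 0.56 ± 0.03 and 0.93 ± 0.03 log2 units. The part of these markers and RNA measures in the member changes was not tested.

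**Figure D5:**
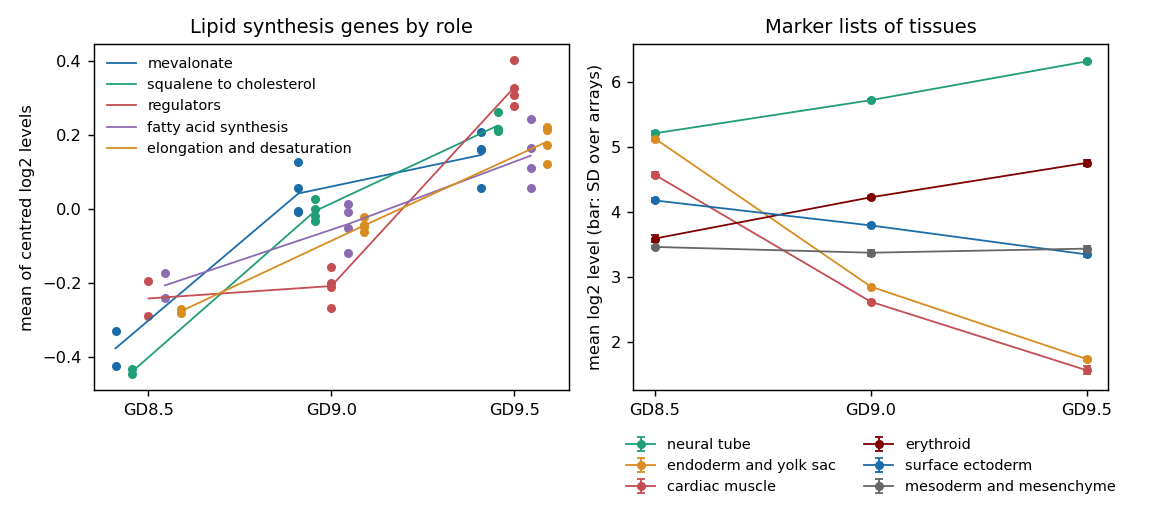
Left, mean centred level of the members of each pathway step on each array (points, log2 units), with lines through the stage means. Right, mean level of 6 tissue marker lists at each stage (points, log2 units, with bars of ±1 SD over arrays). The sterol enzymes climb from GD8.5, the regulators stay at -0.24 and -0.21 before reaching 0.33, neural tube markers climb from a mean of 5.21 to 6.32 and endoderm markers drop from 5.13 to 1.74.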

How the data were processed

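Total RNA of micro-dissected neural tubes was labelled with biotin and hybridised to 12 arrays, per the labels' protocols. The authors deposited log2 values for 10 arrays, with array medians from 1.75 to 1.82. The authors deposited linear intensity values for GD8.5 replicates 1 and 2, with medians of 92.2 and 98.3, and these were left out of the main fit. RMA, GCRMA and Affymetrix Expression Console 1.2.1 are listed in the submitters' processing notes, and the step each served was not given in the sources used here. Sorted values of the log2 arrays differed by at most 0.27, whether all were normalized in 1 step is not known, and GD8.5 rests on 2 arrays.

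Of 45101 probe sets, 64 were Affymetrix controls, 34958 named 1 gene, 932 named several and 9160 named none in the platform annotation. Of the 18193 genes, 161 had no match in the RefSeq gene table used for names. A mean per stage was fitted with limma 3.58.1 in R 4.3.3 (7 residual and 3.86 prior degrees of freedom). P-values were adjusted by the Benjamini-Hochberg method over genes, with calls at 0.05, and those of further probe sets over probe sets. Over all genes, the median change lay from -0.0164 to 0.003 in the 4 contrasts. The number of arrays limits the precision, and no scan batches are known. A bound was taken against the background of 1.42 where a stage mean lay under it.

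All measured members are named. Of the other pathway lists, up to 3 called rises and 3 falls and a few set genes could be named. The members and lists were chosen with earlier results of these data known. Alternatives changed the normalization, the arrays, the probe set, the filter, the spread, the stages fitted and the replicate block, and left out each array.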

Additional observations from a re-analysis of the deposited data

Results flagged for a closer look

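Among the 64 sets of 4 arrays checked (31 members and the mean over all members at GD9.0 and at GD9.5), 5 had an array apart from the other 3 by more than the critical share of the range, 0.829. Chance flags about 1 set in 20. Pmvk was high on GD9.0 replicate 3, at 4.92 against 4.75 to 4.78. Srebf2 was low on GD9.5 replicate 3, at 3.64 against 3.82 to 3.85. Scd2 was low on GD9.0 replicate 3, at 9.77 against 9.87 to 9.89. Elovl6 was low on GD9.5 replicate 2, at 6.74 against 6.95 to 6.98. Fads1 was low on GD9.0 replicate 4, at 6.35 against 6.43 to 6.44.

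The change of the second interval minus that of the first passed the limma test for 10 members. It was above 0 for Srebf2 (1.15 ± 0.13), Fads2 (1.15 ± 0.11) and Scap (0.47 ± 0.12). It was below 0 for Fdps (-0.88 ± 0.09), Nsdhl (-0.59 ± 0.09), Elovl5 (-0.57 ± 0.10), Lss (-0.51 ± 0.13), Pmvk (-0.50 ± 0.13), Cyp51 (-0.47 ± 0.09) and Idi1 (-0.46 ± 0.10).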

How the results depend on the processing

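Over the alternatives, leave-one-out fits included, 15 to 21 members rose in the first interval, 9 to 18 in the second and 20 to 24 over the day. Of the members called in the main fit, 9 of 18, 10 of 17 and 18 of 24 were called in every alternative, and 5 of 10 for the difference of the intervals. With all 12 arrays, 9 members rose in the second interval, 1 was called lower in the first interval and 1 over the day, and 2294 genes were called in the second interval and 1086 for the difference, against 4429 and 2118. With an intensity trend and robust spread, 1 member was called lower in the first interval and 1 over the day, and 11 had a smaller second change. With each gene read as the average over its probe sets, the median difference of the intervals was -0.055 against -0.16, and Scd2 turned to -0.015 in the second interval and to -0.74 for the difference. Without probe sets of the suffixes _x_at, _s_at and _a_at, Lss turned to 0.71 in the second interval and 0.30 for the difference, and Msmo1 to -0.060 in the second interval. These follow from the probe sets used, while the cause of the other shifts was not tested. Leaving out 1 array gave 1387 to 2391 genes called in the first interval, 3761 to 4274 in the second, 3574 to 5194 over the day and 1373 to 1941 for the difference. The lowest first-interval count came without GD8.5 replicate 4, and without GD8.5 replicate 3 it was 1526.

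Equal replicate numbers of GD9.0 and GD9.5 had correlations of -0.026, 0.124, 0.067 and 0.035 between their deviations, so the numbers were not taken to pair the samples. With the replicate block, 17 members rose in the first interval, 15 in the second and 24 over the day, and 1899, 4176, 4628 and 1580 genes were called in the 3 comparisons and for the difference.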

Other observations

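Fatty acid oxidation breaks down what fatty acid synthesis makes. Of 19 measured genes of this pathway, 6 rose and 1 fell in the first interval, beside 6.78% and 6.74% of all genes. In the second interval 9 rose and none fell, beside 14.1% and 10.3% of all genes. Over the day 9 rose and none fell, beside 15.5% and 13.1% of all genes. The median log2 changes were -0.0019, 0.12 and 0.27 for the first interval, the second and the day. Eci1, an isomerase for unsaturated chains, rose by 1.72 ± 0.14 over the day (limma adjusted p = 3.21e-06), with stage means of 2.98, 3.50 and 4.71. Hadhb, a subunit of the mitochondrial trifunctional protein, rose by 1.21 ± 0.13 (limma adjusted p = 3.56e-05). Etfa, which passes electrons from fatty acid dehydrogenases to the respiratory chain, rose by 0.92 ± 0.06 (limma adjusted p = 6.65e-07), with stage means of 6.44, 6.56 and 7.36. The same tissue and RNA measures moved with these genes, and their part was not tested.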
